A study of Mus musculus with 8 samples.

Results

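Myosins are motor proteins that pull on actin filaments, and tropomyosins are coiled-coil proteins that lie along those filaments. Their messenger RNAs were described in Lacun3 cells, a line from a mouse lung adenocarcinoma, with intact or disrupted Stk11. The members were the protein-coding genes of the deposited count table with a symbol of the form Myo, Myh or Myl followed by a number, the genes Tpm1 to Tpm4, and Mylk. The rule took 55 genes of 56884 in the table, or of 21633 protein-coding genes, and used no measured value. The parental group (STK11 WT) held 4 libraries of unedited Lacun3 cells, and the knockout group (STK11 KO) held 4 libraries of Lacun3 cells in which Stk11 had been disrupted by CRISPR. Both were untreated cultures grown in the same medium with serum and collected while dividing, and the submitters call the 4 of each genotype independent biological replicates. The sources used here do not state whether the edited cells were 1 clone or a pool, so the comparison is between these lines. Stk11 encodes LKB1, a kinase that activates AMPK and related kinases.

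Conventional myosins, class II, are built from a pair of heavy chains with an essential and a regulatory light chain on each. They assemble into bipolar filaments that slide actin filaments past each other, in muscle and in the stress fibres and cell junctions of other cells. In cells outside muscle, phosphorylation of the regulatory light chain by myosin light chain kinase or by ROCK, the kinase downstream of RhoA, switches the motor on. Unconventional myosins carry cargo, tether membranes to actin or work in protrusions such as microvilli and filopodia. Tropomyosin isoforms sort which myosins and filament-binding proteins reach a given actin filament.

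Stk11 mRNA was at 64.9, 67.1, 68.4 and 64.7 CPM (counts scaled to library size) in parental replicates 1 to 4 and at 35.4, 35.1, 33.5 and 35.0 CPM in knockout replicates 1 to 4. The groups did not overlap, and Stk11 fell by 0.93 ± 0.06 on the log2 scale (SE; edgeR quasi-likelihood test, Benjamini-Hochberg adjusted p = 2.02e-12). Libraries held 18837263 to 21101904 counts in the parental and 21441601 to 25715008 in the knockout group. Knockout replicate 3 stood apart from the other knockout libraries, with a chi-square per degree of freedom of 14.2 to 20.7 against each of them, while all other pairs within a group lay between 3.27 and 9.62. Of 7 epithelial markers, 5 were above 1 CPM; all 7 summed to 8158 to 8589 CPM in parental and 7699 to 8607 CPM in knockout libraries. Krt19 rose, with a log2 fold change of 0.22 (edgeR adjusted p = 0.00213), while Krt8 and Cdh1 did not pass. Krt18 fell with -0.49 (edgeR adjusted p = 8.12e-07) and Epcam with -0.30 (edgeR adjusted p = 0.0151). Cldn4 had 37 counts in the parental and 5 in the knockout group, and Cldn7 had no count. None of 6 lung epithelial markers reached 1 CPM in either group, and Sftpa1 and Sftpc had no count. The 6 smooth muscle markers summed to 225 to 286 CPM in parental and 462 to 567 CPM in knockout libraries, of which Smtn took 241 and 504 CPM on average, while Acta2, Actg2, Cnn1 and Lmod1 were near 0. The other marker of that list, Des, fell from 2.00 ± 0.347 to 0.551 ± 0.214 CPM (SD, n = 4; edgeR adjusted p = 1.94e-06), and Cnn1 had 12 counts in the parental group and 0 in the knockout group. The 10 striated muscle markers summed to 157 to 168 and 90.6 to 118 CPM, of which Tnnt2 took 159 and 105 CPM on average, while Myod1, Myog and Actn2 had no count. Sums for the 4 blood markers were 46.3 to 52.9 and 12.9 to 25.3 CPM, mostly Cd68. The 6 fibroblast markers summed to 3.86 to 5.62 and 2.03 to 3.07 CPM, and the 4 endothelial markers to 1.05 to 1.85 and 3.42 to 4.81 CPM. The part of these marker levels in the results below was not tested. In bulk samples, a change in the make-up of the cells and a change in the RNA of each cell cannot be told apart.

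Of the 55 genes, 33 had enough counts to be tested. In the knockout cells 27 of them changed at an adjusted p under 0.05, or 81.8% of the tested members, beside 68% of all 13707 tested genes. Without knockout replicate 3 the number was also 27. Of these, 9 rose (34.4% of all tested genes rose) and 18 fell (33.6% of all tested genes fell). The changes reached at least 2-fold for 11 members, beside 16.4% of all tested genes. Myl7, Tpm4 and Myo10 were among the members that rose at least 2-fold (7.02% of all tested genes did so), and Myh14, Myo5b, Mylk, Myo15a, Myo7a, Myl6b and Myo1a fell at least 2-fold (9.41% of all tested genes did so). For 27 members every knockout library lay on 1 side of every parental library, beside 60.6% of all tested genes. The median log2 fold change over the tested members was -0.28, and that over all tested genes was 0.01. The median absolute log2 fold change was 0.52 for the members and 0.37 for all tested genes. The 33 members were those that passed a filter on low counts, which a gene high in a single group can pass, so these shares describe the tested members only.

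**Figure D1:**
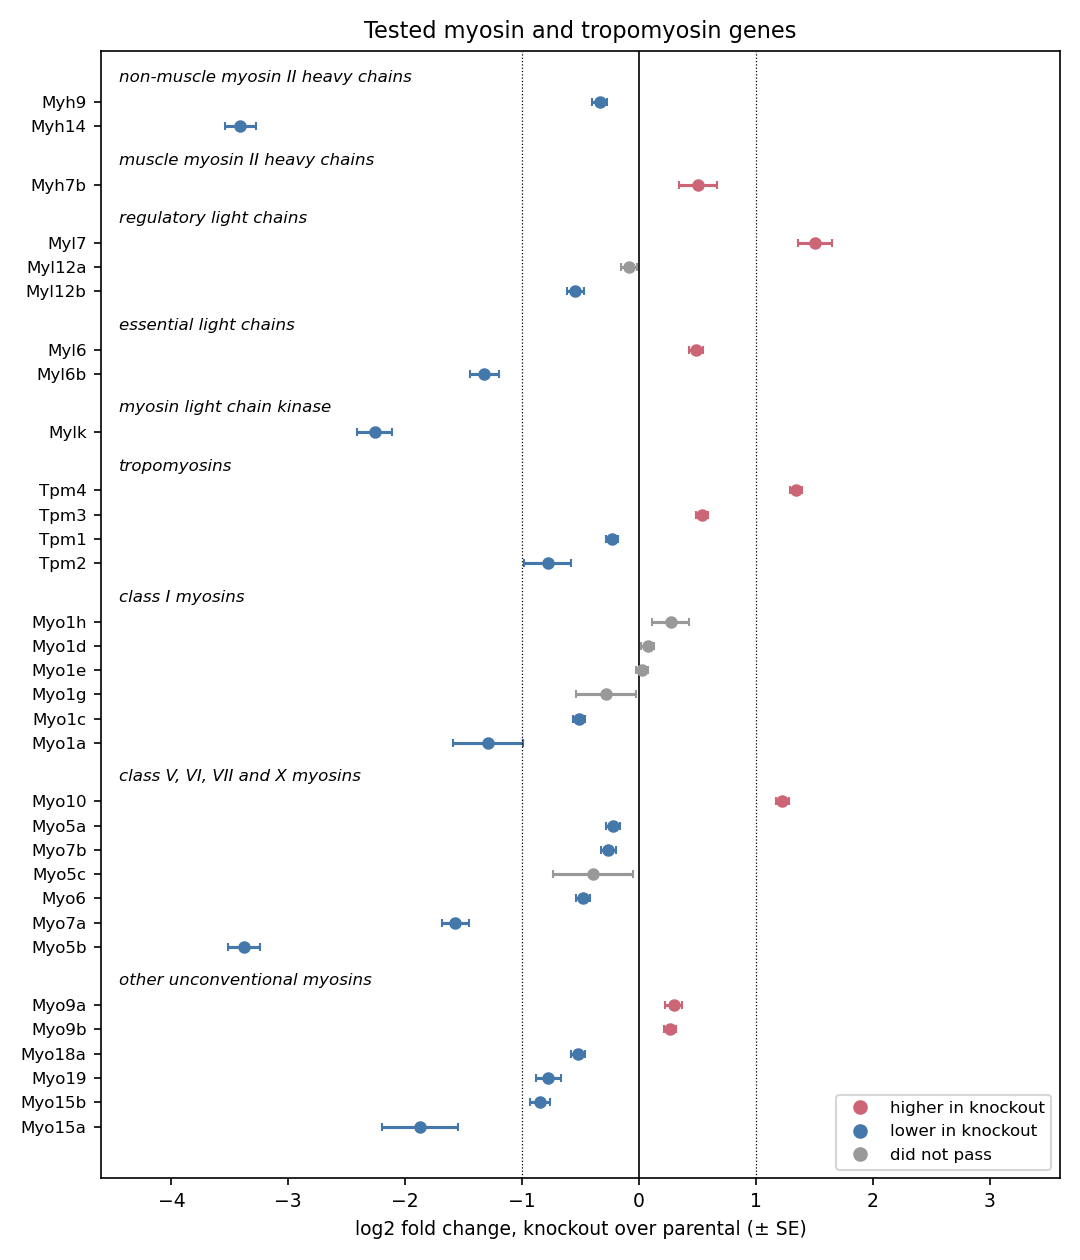
Log2 fold change, knockout over parental, of 32 of the tested members (points, with bars of 1 SE), grouped by role; red points rose, blue points fell, grey points did not pass, and dotted lines mark 2-fold. Of those shown, Myl7 lies farthest to the right at 1.51, and Myh14 and Myo5b farthest to the left at -3.41 and -3.38.

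The other 22 genes were not tested, and none had more than 8 counts in any library. No count was found for 10 of them in any library: the muscle heavy chain genes Myh1, Myh2, Myh4, Myh7, Myh8 and Myh13, the light chain genes Myl3, Myl9 and Myl10, and Myo3a, a motor of sensory stereocilia. A count of 0 over a group allows up to 0.0358 CPM for the parental group and 0.0338 CPM for the knockout group (3 counts, counting error only). Among the 12 with a count, Myh10, the heavy chain of non-muscle myosin IIB, had 18 counts in the parental and 2 in the knockout group. Its ratio, parental over knockout, was 9.53 after scaling (exact 95% interval 2.28 to 84.7, counting error only). Myo16 had 19 parental and 3 knockout counts, a ratio of 6.71 (1.97 to 35.4). Myl4, the atrial and embryonic essential light chain, had 1 parental and 13 knockout counts, a ratio, knockout over parental, of 12.3 (1.84 to 522). Myh3, Myh6, Myh11, Myh15, Myl1, Myl2, Myo1f, Myo3b and Myo18b had between 1 and 7 counts each over all 8 libraries.

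Promoters of the members that changed at least 2-fold are shown to let the windows at their starts be compared. Each is a RefSeq window of 300 bases, 250 before and 50 after an annotated start, on build GRCm38.p6, written 5′ to 3′ on the gene's strand. Of the members with a window used here, those of Myh14, Tpm4, Myo10, Mylk, Myo7a and Myl7 follow in order of adjusted p. Myo5b, between Tpm4 and Myo10 in adjusted p, is missing from the order because its window was not used, as explained below. The windows of Myl6b, Myo15a and Myo1a, next in that order, held none of the motifs searched and are not printed. Myo10 and Myo7a have a second start in the table; the downstream start of Myo10 and the upstream start of Myo7a are shown. Capitals mark matches, on either strand, to GGAATG, the core of the site of TEAD factors, or to the CArG box of SRF, the serum response factor.
Myh14, chr7:44670794-44671093, minus strand: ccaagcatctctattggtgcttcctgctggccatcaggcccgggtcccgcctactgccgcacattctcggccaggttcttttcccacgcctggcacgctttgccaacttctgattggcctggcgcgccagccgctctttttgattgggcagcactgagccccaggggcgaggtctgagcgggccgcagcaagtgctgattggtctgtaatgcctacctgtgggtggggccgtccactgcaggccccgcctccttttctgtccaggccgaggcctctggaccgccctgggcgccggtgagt
Tpm4, chr8:72135038-72135337, plus strand: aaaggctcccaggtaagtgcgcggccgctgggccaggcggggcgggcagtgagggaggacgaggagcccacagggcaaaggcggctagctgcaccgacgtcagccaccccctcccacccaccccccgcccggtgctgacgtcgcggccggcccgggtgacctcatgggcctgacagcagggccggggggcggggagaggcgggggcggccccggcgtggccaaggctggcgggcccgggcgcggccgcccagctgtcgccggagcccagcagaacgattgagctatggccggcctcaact
Myo10, chr15:25752956-25753255, plus strand: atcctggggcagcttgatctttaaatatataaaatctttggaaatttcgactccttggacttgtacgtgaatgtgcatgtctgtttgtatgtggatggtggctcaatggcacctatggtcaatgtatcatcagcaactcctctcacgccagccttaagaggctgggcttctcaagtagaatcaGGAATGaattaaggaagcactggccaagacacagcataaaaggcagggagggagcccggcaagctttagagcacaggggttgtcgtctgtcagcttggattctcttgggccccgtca
Mylk, chr16:34784700-34784999, plus strand: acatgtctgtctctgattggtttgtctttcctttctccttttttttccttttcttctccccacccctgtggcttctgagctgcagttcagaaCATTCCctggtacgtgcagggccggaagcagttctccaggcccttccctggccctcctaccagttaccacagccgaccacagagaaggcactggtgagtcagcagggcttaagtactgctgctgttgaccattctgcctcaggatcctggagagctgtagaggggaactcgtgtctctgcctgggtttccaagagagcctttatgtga
Myo7a, chr7:98119444-98119743, minus strand: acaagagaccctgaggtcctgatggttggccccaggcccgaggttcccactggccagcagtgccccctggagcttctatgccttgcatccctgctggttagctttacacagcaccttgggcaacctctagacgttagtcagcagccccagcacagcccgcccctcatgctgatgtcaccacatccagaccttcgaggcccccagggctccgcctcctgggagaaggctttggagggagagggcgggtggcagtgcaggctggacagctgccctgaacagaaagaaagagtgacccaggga
Myl7, chr11:5898733-5899032, minus strand: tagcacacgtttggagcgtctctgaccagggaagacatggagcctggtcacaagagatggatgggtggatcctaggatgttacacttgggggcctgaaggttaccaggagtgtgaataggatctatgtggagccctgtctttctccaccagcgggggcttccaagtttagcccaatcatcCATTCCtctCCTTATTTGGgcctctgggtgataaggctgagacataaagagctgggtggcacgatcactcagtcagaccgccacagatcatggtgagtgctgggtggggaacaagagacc

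The Myl7 window held a CArG box starting at position -61 from the start and a GGAATG match, on the opposite strand, at -70. The Myo10 window shown held GGAATG at -67, and the Mylk window held it at -158 on the opposite strand. The windows of Myh14, Tpm4 and Myo7a held neither, and neither did the upstream Myo10 start. The CRE palindrome TGACGTCA was absent from all 6 windows. Of the 55 members, 49 had at least 1 window used here, 61 windows in all. Member windows on chromosome 18, where Myo5b and Myo7b lie, were left out. No such exclusion was made for the windows of the whole table. A CArG box lay in 7 of these 61 windows and in 1.63% of all 32851 windows of the table. For GGAATG the values were 16 of 61 and 14.7%, and for TGACGTCA 1 of 61 and 1.79%. Among the 37 windows of tested members, the CArG box lay in those of Myl6, Myl7 and Myo1e, GGAATG in those of Myl12a, Myl7, Mylk, Myo10, Myo1h, Myo6, Myo9b and Tpm1, and TGACGTCA in that of Myl6. A match describes the letters of a window and not binding.

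Both tested heavy chains of non-muscle myosin II fell in the knockout cells, as did 33.6% of all tested genes. Myh9 encodes the IIA heavy chain, the main contractile motor of most epithelial cells (ENSMUSG00000022443.18, chr15:77644787-77726375, minus strand, GRCm39). It was at 1382, 1423, 1337 and 1359 CPM in parental replicates 1 to 4 and at 1105, 986, 1234 and 1028 CPM in knockout replicates 1 to 4. All knockout libraries were below all parental ones, with knockout replicate 3 the highest of its group. The mean went from 1375 ± 36.9 to 1088 ± 109 CPM (SD, n = 4), a log2 fold change of -0.34 ± 0.07 (SE; edgeR adjusted p = 9.21e-05).

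Myh14 encodes the IIC heavy chain, which is found at epithelial junctions (ENSMUSG00000030739.19, chr7:44255227-44320267, minus strand, GRCm39). Its parental libraries were at 17.1, 19.4, 19.7 and 17.6 CPM and its knockout libraries at 1.44, 1.6, 2.25 and 1.53 CPM. The highest knockout library was far below the lowest parental one. From 18.4 ± 1.30 to 1.71 ± 0.371 CPM (SD, n = 4), Myh14 fell 10.6-fold, a log2 fold change of -3.41 ± 0.13 (SE; edgeR adjusted p = 5.24e-16). Levels of different genes were compared as CPM per kilobase of exon. On that scale Myh14 made up 2.33% ± 0.172 of the summed non-muscle heavy chain level in parental libraries and 0.276% ± 0.0392 in knockout libraries (SD, n = 4). As plain counts it made up 1.32% and 0.156%, and with the longest transcript as the length 1.51% and 0.178%. Per kilobase of exon, Myh9 took 97.7% and 99.7%, and Myh10 the remainder.

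Of the 11 muscle heavy chain genes, Myh7b alone passed the filter. Myh7b is a slow-type muscle heavy chain that also hosts a microRNA, and it was low in these cells. It was at 2.48, 3.15, 3.07 and 2.63 CPM in parental replicates 1 to 4 and at 3.57, 3.25, 4.51 and 4.68 CPM in knockout replicates 1 to 4. The groups lay next to each other without overlap, and Myh7b rose by 0.50 ± 0.16 on the log2 scale (SE; edgeR adjusted p = 0.0092). Its span overlaps Trpc4ap, on the opposite strand, by 37 bp. Trpc4ap was at 179 and 145 CPM in the 2 groups. No source used here states whether reads were counted by strand.

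The light chains split in each class. Among regulatory light chains, which take the activating phosphate, Myl7 rose, Myl12b fell and Myl12a did not pass. Among essential light chains, which stiffen the lever arm of the motor, Myl6 rose and Myl6b fell. Summed per kilobase, the regulatory light chains were at 55.4 ± 2.47 and 58.7 ± 5.10 CPM per kb in the 2 groups, and the essential light chains at 63.0 ± 0.218 and 83.1 ± 6.76 CPM per kb (SD, n = 4). In CPM without length the regulatory sum lay the other way, at 166 ± 5.48 and 154 ± 14.3, and the essential sum was 194 ± 1.17 and 262 ± 21.4 (SD, n = 4). These sums were not tested.

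Myl12a, the most abundant regulatory light chain per length, was at 135, 127, 129 and 135 CPM in parental and at 124, 134, 105 and 133 CPM in knockout libraries. The groups overlapped, with knockout replicate 3 the lowest of the 8. Its log2 fold change was -0.09 ± 0.07 (SE; edgeR adjusted p = 0.251), with a 95% interval of -0.21 to 0.04. Scaling by library size alone gave -0.17, with an edgeR adjusted p of 0.021. Myl12b, its neighbour on chromosome 17 with a nearly identical protein, fell from 31.5 ± 2.92 to 21.6 ± 0.558 CPM (SD, n = 4), a log2 fold change of -0.54 (edgeR adjusted p = 1.21e-06). Reads that match both genes may be lost or shared. The protein-coding gene Gm49909, on the same strand, overlaps the span of Myl12b by 16772 bp and that of Myl12a by 8553 bp. It was at 0.230 and 0.244 CPM in the 2 groups, and reads that match it too may also be lost. The sources used here do not state how such reads were handled.

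Myl7 is the regulatory light chain of the heart atrium (ENSMUSG00000020469.9, chr11:5846637-5848782, minus strand, GRCm39). Parental replicates 1 to 4 were at 2.76, 2.13, 3.67 and 3.04 CPM, and knockout replicates 1 to 4 at 8.47, 8.53, 7.38 and 8.80 CPM. Every knockout library was higher than every parental one. The rise was 2.85-fold, a log2 fold change of 1.51 ± 0.14 (SE; edgeR adjusted p = 4e-09). Its share of the summed regulatory light chain level per length went from 8.83% ± 1.63 to 24.0% ± 0.542 (SD, n = 4). That share was 1.74% and 5.40% as plain counts, and 5.6% and 16.0% with the longest transcript as the length. The summed striated muscle markers were lower in knockout libraries, as given above. The window of Myl7 printed above is the only one of the 6 with a CArG box.

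Myl6, the essential light chain of smooth and non-muscle myosin, was at 187, 182, 183 and 182 CPM in parental and at 271, 268, 226 and 266 CPM in knockout libraries. The lowest knockout library, replicate 3, was still above all parental ones. The log2 fold change of Myl6 was 0.49 ± 0.06 (SE; edgeR adjusted p = 1.06e-07). Myl6b lies on the same strand of chromosome 10, with its 3′ end 11 bp from the start of Myl6 (ENSMUSG00000039824.5, chr10:128330026-128334554, minus strand, GRCm39), and it moved the opposite way. It was at 8.48, 10.3, 10.5 and 10.6 CPM in parental and at 4.71, 4.15, 3.88 and 3.29 CPM in knockout libraries, which did not overlap. Myl6b fell 2.50-fold, a log2 fold change of -1.32 ± 0.13 (SE; edgeR adjusted p = 4.37e-09). Its share of the summed essential light chain level per length went from 8.59% ± 0.884 to 2.62% ± 0.379 (SD, n = 4). As plain counts it was 5.17% and 1.54%, and with the longest transcript 11.8% and 3.67%.

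Mylk, the calcium- and calmodulin-dependent kinase of the regulatory light chain, fell (ENSMUSG00000022836.12, chr16:34565580-34822790, plus strand, GRCm39). Its parental libraries were at 12.5, 13.7, 12.3 and 10.5 CPM and its knockout libraries at 2.77, 2.92, 1.67 and 3.01 CPM. The groups were well separated, with knockout replicate 3 the lowest of the 8. The fall was 4.8-fold, a log2 fold change of -2.26 ± 0.15 (SE; edgeR adjusted p = 5.65e-12). Among the smooth muscle markers, Smtn was higher in knockout libraries and Des lower, as given above.

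Other genes that set light chain phosphorylation moved both ways. Of 29 genes for ROCK and its upstream GTPases, the kinases and the phosphatase of the light chain, 25 were tested, and 13 rose, 8 fell and 4 did not pass, beside the 68% of all genes that changed. The median log2 fold change of the tested genes was 0.15. Ppp1cb, the catalytic subunit of myosin phosphatase, rose from 209 ± 6.42 to 414 ± 27.9 CPM (SD, n = 4; log2 fold change 0.98 ± 0.06 SE, edgeR adjusted p = 5.5e-13). Arhgef2, a microtubule-bound activator of RhoA, rose with a log2 fold change of 0.74 (edgeR adjusted p = 3.42e-10). Rhob, a small GTPase of endosomes, had -0.72 (edgeR adjusted p = 1.7e-10), and Cdc42bpg, a kinase downstream of Cdc42, had -0.82 (edgeR adjusted p = 5.69e-10). The ROCK genes, named after their values were seen, went opposite ways. Rock1 rose from 74.0 to 105 CPM, with a log2 fold change of 0.50 (edgeR adjusted p = 3.58e-08). Rock2 fell from 749 to 542 CPM, with -0.47 (edgeR adjusted p = 4.62e-08). Mylk2, Mylk3 and Mylk4, the related kinases of striated muscle, were too low to be tested. Mylk2 had 57 counts in the parental and 6 in the knockout group, Mylk3 had 5 and 4, and Mylk4 had 3 and 2.

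All 4 tropomyosin genes were tested: Tpm3 and Tpm4 rose, and Tpm1 and Tpm2 fell. Over all tested genes, 34.4% rose and 33.6% fell. Tpm4, a source of non-muscle isoforms, changed most on the log2 scale (ENSMUSG00000031799.11, chr8:72884018-72906986, plus strand, GRCm39). Parental replicates 1 to 4 were at 294, 284, 290 and 306 CPM, and knockout replicates 1 to 4 at 755, 745, 716 and 762 CPM. Every knockout library was more than 2-fold above every parental one. Tpm4 rose 2.54-fold, a log2 fold change of 1.34 ± 0.05 (SE; edgeR adjusted p = 7.51e-16). The long non-coding RNA Gm26586, which overlaps Tpm4 by 3432 bp on the opposite strand, was at 1.48 and 3.45 CPM in the 2 groups.

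Tpm1, the source of several stress fibre isoforms, was at 846, 811, 846 and 846 CPM in parental and at 721, 717, 698 and 723 CPM in knockout libraries. The groups did not overlap, and the step was small. The log2 fold change was -0.23 ± 0.05 (SE; edgeR adjusted p = 0.0005). Tpm2, which makes the muscle beta-tropomyosin and a fibroblast isoform, was low and fell from 2.66 ± 0.439 to 1.55 ± 0.311 CPM (SD, n = 4; log2 fold change -0.78 ± 0.20 SE, edgeR adjusted p = 0.00142). Tpm3 rose from 125 ± 4.32 to 182 ± 5.00 CPM (SD, n = 4), a log2 fold change of 0.54 ± 0.05 (SE; edgeR adjusted p = 2.56e-09). Tpm3-rs7, a retrocopy on chromosome 14, held 136 CPM on average in parental libraries and 193 CPM in knockout libraries, and reads of Tpm3 may be counted there. With the counts of both added, the log2 fold change was 0.52 ± 0.05 (SE; edgeR adjusted p = 5.36e-09).

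The 4 genes together were at 284 ± 6.93 CPM per kb of exon in parental and 479 ± 10.8 in knockout libraries, and at 1259 ± 27.3 and 1643 ± 30.7 CPM without length (SD, n = 4; not tested). In parental libraries Tpm4 took 46.9% ± 0.522 of this sum and Tpm1 45.5% ± 0.564. In knockout libraries Tpm4 took 70.6% ± 0.359 and Tpm1 23.0% ± 0.174. The 4 libraries of a group lay within 46.6% to 47.7% for Tpm4 in the parental group and within 70.1% to 70.9% in the knockout group. Tpm3 took 7.26% and 6.27%, and Tpm2 0.322% and 0.111%. The direction for Tpm3 turned with the scale: its share went from 9.96% to 11.1% as plain counts and from 11.0% to 11.4% with the longest transcript. Which of Tpm1 and Tpm4 led in the parental cells depended on the length used. With the longest transcript in place of all exons, Tpm1 took 60.2% and Tpm4 28.6% in parental libraries, and 36.6% and 51.9% in knockout libraries. As shares of plain counts, Tpm1 went from 66.5% to 43.5% and Tpm4 from 23.3% to 45.3%. The ratio of Tpm4 to Tpm1 rose by the same factor on each scale, because the length of a gene is fixed across libraries. The scales are thus not separate checks of that rise.

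**Figure D2:**
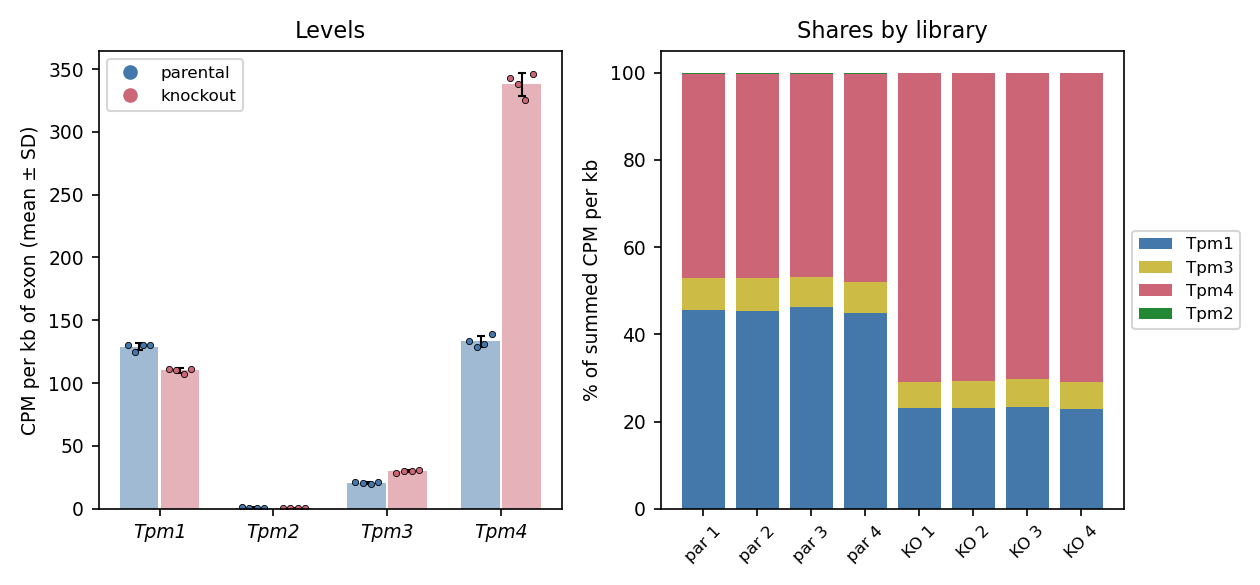
Left, level of each tropomyosin gene in CPM per kilobase of exon (bars, mean of 4 libraries; error bars, SD; points, single libraries). Right, percent of the summed tropomyosin level taken by each gene in each of the 8 libraries; Tpm4 takes 46.6% to 47.7% in parental and 70.1% to 70.9% in knockout libraries.

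Both tested actin genes rose, as did 34.4% of all tested genes. Actb, cytoplasmic beta-actin, went from 3689 ± 24.7 to 5052 ± 149 CPM (SD, n = 4), a log2 fold change of 0.45 ± 0.06 (SE; edgeR adjusted p = 5.98e-07). Actg1, cytoplasmic gamma-actin, went from 334 ± 7.84 to 573 ± 9.70 CPM, with 0.78 ± 0.05 (SE; edgeR adjusted p = 5.34e-12). The muscle actin genes Acta1, Acta2, Actc1 and Actg2 were too low to be tested. Of 37 genes for proteins that bind, cap, cross-link or sever actin filaments, 31 were tested. Of these, 12 rose and 16 fell, where 34.4% of all tested genes rose and 33.6% fell; the median over the 31 was -0.20 on the log2 scale, and 3 did not pass. Vasp, which speeds filament growth, rose (log2 fold change 0.79, edgeR adjusted p = 1.29e-11), as did Tagln2, a calponin-family protein (0.72, edgeR adjusted p = 7.05e-11). Fscn1, the fascin that bundles filopodial actin, fell from 262 ± 4.85 to 74.2 ± 4.94 CPM (SD, n = 4; log2 fold change -1.82 ± 0.06 SE, edgeR adjusted p = 9e-18). Cnn2, calponin 2, fell from 224 ± 0.751 to 102 ± 11.7 CPM (SD, n = 4; log2 fold change -1.13 ± 0.06 SE, edgeR adjusted p = 5.75e-13).

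SRF with its partners MRTF-A and MRTF-B drives many genes of the actin cytoskeleton. Of 21 genes for this pathway and its known targets, 15 were tested. Of these, 3 rose and 9 fell (34.4% and 33.6% of all tested genes), while 3 did not pass, and their median was -0.40 on the log2 scale. Fos, an immediate early gene, rose from 16.0 ± 1.77 to 51.0 ± 4.56 CPM (SD, n = 4; log2 fold change 1.67 ± 0.08 SE, edgeR adjusted p = 4.91e-14). Flna, the cross-linker filamin A, rose (log2 fold change 0.58, edgeR adjusted p = 2.75e-08). Ccn2, also a target of YAP and TEAD, fell from 460 ± 15 to 19.9 ± 2.41 CPM (SD, n = 4; log2 fold change -4.54 ± 0.07 SE, edgeR adjusted p = 3.68e-22). Cnn2 is in this list too. The genes Myl9, Acta2, Tagln and Cnn1, often used as readouts of this pathway, were all too low to be tested.

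Class I myosins are single-headed and link membranes to actin. Myo1c, the most abundant class I gene per length and a motor of membrane delivery, was at 299, 309, 307 and 309 CPM in parental and at 213, 202, 233 and 210 CPM in knockout libraries. All knockout libraries were lower, and the log2 fold change was -0.51 ± 0.05 (SE; edgeR adjusted p = 1.48e-08). Myo1a, a motor of intestinal microvilli, was low and fell from 1.6 ± 0.663 to 0.651 ± 0.0400 CPM (SD, n = 4; log2 fold change -1.29 ± 0.30 SE, edgeR adjusted p = 0.000638). Myo1d was at 184 and 194 CPM, with a log2 fold change of 0.08 (interval -0.03 to 0.18, edgeR adjusted p = 0.217). Myo1e was at 155 and 158 CPM, with 0.03 (interval -0.08 to 0.13, edgeR adjusted p = 0.663). Myo1g and Myo1h, both low, did not pass (edgeR adjusted p = 0.337 and 0.141), and Myo1h overlaps the more abundant Kctd10 on the opposite strand by 1791 bp.

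**Figure D3:**
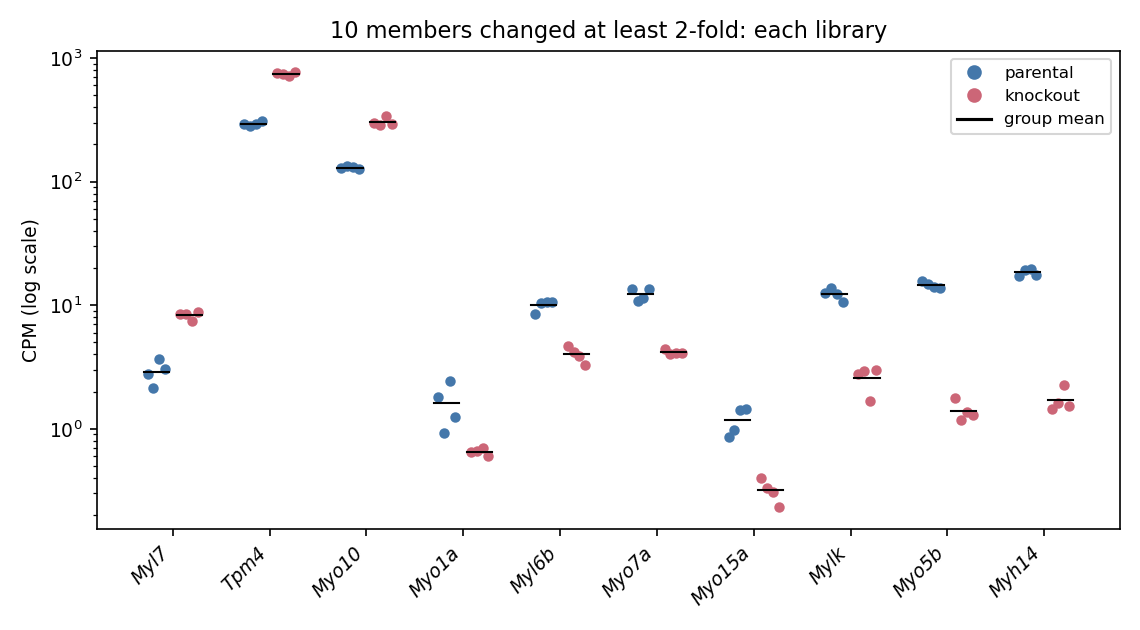
CPM in each library (points, log scale) of 10 of the members that changed at least 2-fold, with the group mean as a black line. Knockout libraries of Tpm4 sit at 716 to 762 CPM against 284 to 306 CPM in parental libraries, and those of Myh14 at 1.44 to 2.25 CPM against 17.1 to 19.7 CPM.

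All 7 members of classes V, VI, VII and X were tested, and 1 rose, 5 fell and 1 did not pass. Over all tested genes 34.4% rose and 33.6% fell. Myo10 carries cargo to the tips of filopodia (ENSMUSG00000022272.18, chr15:25622611-25813759, plus strand, GRCm39). Parental replicates 1 to 4 were at 129, 133, 131 and 126 CPM, and knockout replicates 1 to 4 at 295, 287, 340 and 291 CPM. Knockout replicate 3 was the highest, and the other knockout libraries were also more than 2-fold above every parental one. Myo10 rose 2.34-fold, a log2 fold change of 1.23 ± 0.06 (SE; edgeR adjusted p = 1.76e-14). The filopodial bundler Fscn1 moved the opposite way, as given above.

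Myo5b moves recycling endosomes to the apical surface of epithelial cells (ENSMUSG00000025885.19, chr18:74574007-74904564, plus strand, GRCm39). It was at 15.8, 14.7, 14.1 and 13.9 CPM in parental and at 1.78, 1.18, 1.36 and 1.30 CPM in knockout libraries. The knockout libraries were all far below the parental ones. The fall was 10.4-fold, a log2 fold change of -3.38 ± 0.14 (SE; edgeR adjusted p = 1.2e-15). Myo5a, a motor of melanosomes and other vesicles, fell from 201 ± 5.16 to 172 ± 16.6 CPM (SD, n = 4; log2 fold change -0.22, edgeR adjusted p = 0.00259). Myo5c was low and did not pass (edgeR adjusted p = 0.321). Among the 3 class V genes per length, Myo5b took 9.88% in the parental and 1.23% in the knockout group, and Myo5a 89.7% and 98.4%. As plain counts the share of Myo5b was 6.76% and 0.816%.

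Myo7a is a motor of stereocilia and of pigment and photoreceptor cells (ENSMUSG00000030761.17, chr7:97700267-97768731, minus strand, GRCm39). Its parental libraries were at 13.6, 10.9, 11.4 and 13.6 CPM and its knockout libraries at 4.41, 4.00, 4.08 and 4.12 CPM. The knockout libraries lay close together below the parental range. The fall was 2.97-fold, a log2 fold change of -1.57 ± 0.12 (SE; edgeR adjusted p = 5.55e-11). Myo7b, a motor of brush border microvilli, had a log2 fold change of -0.26 (71.5 to 59.6 CPM, edgeR adjusted p = 0.000959). Myo6, which moves towards the minus end of actin filaments in endocytosis, had -0.48 (75.8 to 54.4 CPM, edgeR adjusted p = 2.9e-07).

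Of 26 genes for myosin chaperones, adaptors and cargo, 21 were tested, and 6 rose and 11 fell, beside 34.4% and 33.6% of all tested genes. The other 4 did not pass, and the median over the 21 was -0.36 on the log2 scale. Mlph, melanophilin, which ties myosin Va to vesicles, fell from 139 ± 1.43 to 53.0 ± 2.91 CPM (SD, n = 4; log2 fold change -1.39 ± 0.05 SE, edgeR adjusted p = 6.84e-16). Calcoco1, an autophagy receptor, fell from 132 ± 4.09 to 55.2 ± 3.86 CPM (SD, n = 4; log2 fold change -1.25 ± 0.06 SE, edgeR adjusted p = 1.21e-14). Gipc1, an adaptor of myosin VI, rose (log2 fold change 0.54, edgeR adjusted p = 3.88e-08), as did Dynll1, a light chain shared with dynein (0.37, edgeR adjusted p = 2.88e-06). The protocadherins Cdhr2 and Cdhr5, which join microvilli tips and work with myosin VIIb, were named after their values were seen. Cdhr2 fell from 17.3 to 5.46 CPM and Cdhr5 from 29.1 to 14.1 CPM (edgeR adjusted p = 1.6e-12 and 7.82e-10).

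The remaining unconventional myosins that were tested changed less than 2-fold, apart from Myo15a. Of 10 members, 6 were tested, and 2 rose and 4 fell (over all tested genes, 34.4% and 33.6%). Myo18a, a myosin with little motor activity that acts at the Golgi, was the highest of them per length. It was at 283, 313, 303 and 294 CPM in parental and at 207, 194, 234 and 199 CPM in knockout libraries. The groups did not overlap, and the log2 fold change was -0.52 (edgeR adjusted p = 7.54e-08). Myo9a and Myo9b, which carry a domain that turns off RhoA, both rose, with log2 fold changes of 0.30 and 0.27 (edgeR adjusted p = 0.000928 and 0.000208). Myo19, a mitochondrial motor, fell from 27.4 to 16.0 CPM (log2 fold change -0.77, edgeR adjusted p = 1.84e-06), and Myo15b from 22.8 to 12.7 CPM (-0.84, edgeR adjusted p = 1.05e-08). Myo15a, a motor of stereocilia tips, was low and fell from 1.17 ± 0.302 to 0.317 ± 0.0678 CPM (SD, n = 4; log2 fold change -1.87 ± 0.33 SE, edgeR adjusted p = 2.8e-05).

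Per length, the tested members covered a wide range of levels, from Tpm4, Tpm1 and Myh9 at the top to Myo15a and Myo5c at the bottom. In parental libraries Tpm4 was at 133 ± 4.34, Tpm1 at 129 ± 2.73 and Myh9 at 106 ± 2.85 CPM per kb (SD, n = 4), and the ranges of Tpm4 and Tpm1 overlapped. In knockout libraries Tpm4 was at 338 ± 9.19, Tpm1 at 110 ± 1.72, Myh9 at 84.2 ± 8.42 and Myl6 at 80.9 ± 6.67 CPM per kb (SD, n = 4), with Myh9 and Myl6 overlapping. Summed over all members the level was 704 ± 3.64 in parental and 901 ± 11.2 CPM per kb in knockout libraries (SD, n = 4). Without the tropomyosins, the class II heavy and light chains with Mylk summed to 229 ± 1.29 and 227 ± 5.12 CPM per kb, and the unconventional myosins to 192 ± 3.27 and 195 ± 9.33 CPM per kb (SD, n = 4). In CPM without length, where long transcripts weigh more, these sums were 4683 ± 31.1 and 4861 ± 142 for all members, 1768 ± 33.8 and 1513 ± 78.1 for class II with its light chains and Mylk, and 1656 ± 30.2 and 1705 ± 88.5 for the unconventional myosins (SD, n = 4). The sums were not tested.

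**Figure D4:**
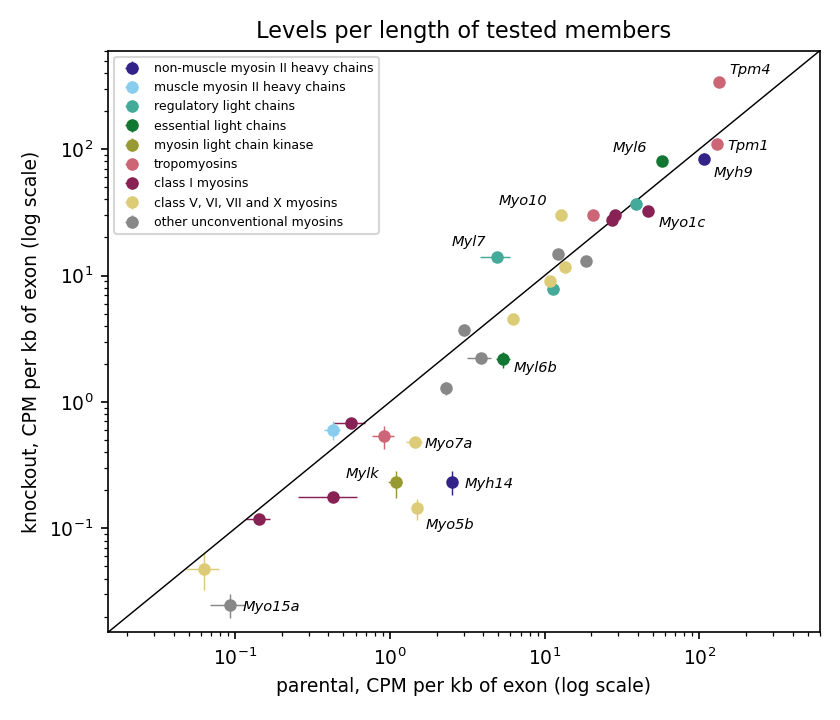
Level of 32 of the tested members in CPM per kilobase of exon, parental on the x axis and knockout on the y axis (both log scales; points, means of 4 libraries; bars, SD; colours, role; diagonal, equal levels). Tpm4, Myo10 and Myl7 lie above the diagonal, and Myh14, Myo5b, Mylk, Myo7a, Myl6b and Myo15a below it.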

How the data were processed

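Libraries were made with a stranded mRNA kit and sequenced as paired reads, per the labels' protocols. FastQC 0.11.8, STAR 2.7.9a, featureCounts 1.6.0, edgeR, limma and the build GRCm39 are named in the submitters' processing notes, with no settings; for strand and for reads that map to several places these were not given in the sources used here. The authors deposited raw counts per gene, which gave all results, and a table of voom log2 CPM values, deposited by the authors for 15726 genes, which served for an alternative.

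Counts were tested with edgeR 4.0.16 (glmQLFit with robust estimation, glmQLFTest, TMM scaling, filterByExpr, genotype as the only term) over the whole table in R 4.3.3, with Benjamini-Hochberg adjustment over 13707 genes and a threshold of 0.05. "Rose" and "fell" mark genes that passed. The standard error is the absolute log2 fold change over the square root of F. CPM are counts over TMM-scaled library sizes, and 1 count was worth 0.0388 to 0.0515 CPM. Levels per kilobase used exon lengths of GENCODE M21 (GRCm38), matched by gene identifier for all 55 members. Spans of genes are those of the count table (GRCm39). The steps were run on simulated data of 13707 genes, with 67 changed 1.5-fold, 67 changed 2-fold and 66 changed 4-fold. Of these, 80.6%, 94.0% and 97.0% were recovered, and 4.23% of all calls were false. Far fewer genes changed there than the 68% in these data, so scaling with that many changed genes was not tested. Replicates were taken as the submitters label them.

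Members and lists were chosen with earlier results of these data known. Values in every library were given for Stk11, for members that passed at 2-fold or more and had a mean of 5 CPM or more in either group, and for the most abundant member of each role. Of each list of other genes, the 2 that rose and the 2 that fell with the lowest adjusted p were named, as was every actin gene. Promoters were those of members changed at least 2-fold in order of adjusted p, where shown, and member windows on chromosome 18 were not used. Results for 1 member are not reported here; counts and sums over members include it. No protein sequences were used. No sample was left out. Alternatives were other scalings and filters, DESeq2 1.42.0, limma 3.58.1 with voom or on the deposited values, edgeR's legacy method, the replicate number as a block, each library left out, other lengths and, for Tpm3, its retrocopy; the last length and the retrocopy were chosen after seeing the data.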

Additional observations from a re-analysis of the deposited data

Results flagged for a closer look

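Within each group of 4 libraries, the gap of the highest or lowest library to its nearest neighbour was set against the range of the group for the 33 tested members. In 7 of 66 such groups 1 library stood apart, with a gap past Dixon's critical value for 95%; chance gives about 1 in 20. Knockout replicate 3 was the lowest of its group for Myl6, at 226 CPM against 266 to 271 CPM, and the highest for Myo10, at 340 CPM against 287 to 295 CPM. Parental replicate 2 was the lowest for Tpm1, at 811 CPM against 846 CPM in each of the others, and the highest for Myo1e, at 162 CPM against 152 to 153 CPM. Tpm3 was lowest in knockout replicate 1, at 175 CPM against 184 to 186 CPM. Myl6b was lowest in parental replicate 1, at 8.48 CPM against 10.3 to 10.6 CPM. Myo1h was lowest in knockout replicate 4, at 3.61 CPM against 4.19 to 4.21 CPM. None of these members gained or lost its call when the library named was left out.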

How the results depend on the processing

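The number of changed members was 27 of 33 in the main test and in every test without 1 library, and it lay between 25 (at least 1 CPM in 4 libraries, fewer genes tested) and 30 (no filter, more genes tested) over all alternatives; 30 of the 33 members kept their direction and their side of the threshold in each alternative that tested them. The other 3 changed with library size alone as the scaling, which moved the median log2 fold change of all genes from 0.01 to -0.07: Myo1d went to -0.0080 and Myo1e to -0.057, neither past the threshold, and Myl12a passed at -0.17. The number of genes changed over the whole table lay between 8722 and 10335. Replicate numbers did not pair the libraries: the correlations of same-numbered deviations were 0.04, -0.01, -0.12 and 0.00. With the replicate block 27 members changed, 18 of them lower, and 9182 genes changed in all, against 9322 without it. Shares within a family moved with the length used, as given beside them; with Tpm3-rs7 added, Tpm3 took 14.0% and 12.1% of the tropomyosin sum. Precision for low members is limited by depth: 1 count was worth 0.0388 to 0.0515 CPM, so that Myo15a, Myo5c and Myo1g rest on few counts. Other alternatives moved no result over the threshold or by over 1.5 times.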

Other observations

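Mylpf, a fast skeletal regulatory light chain whose symbol falls outside the rule, was at 6.45 ± 0.911 CPM in parental libraries and at 3.25 ± 0.624 CPM in knockout libraries (SD, n = 4), a log2 fold change of -0.99 ± 0.15 (SE; edgeR adjusted p = 5.15e-06). It moved the opposite way to Myl7.

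The deviation of knockout replicate 3 from the other knockout libraries was set against exon length, a comparison chosen after the data were seen. Across 13491 genes Spearman's rho was 0.24, and across the 33 tested members it was 0.47; for knockout replicate 2 the values were -0.29 and -0.45. Genes of a library share its depth and preparation and are not independent, so these are descriptions. Of the 23 members of at least 6 kb, 14 lay above the other knockout libraries in replicate 3, with a median log2 deviation of 0.04, and of the 10 shorter members 7 lay below, with a median of -0.06.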
